A study of Homo sapiens with 12 samples.

Results

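The 4 libraries numbered 3 in an RNA sequencing series on K562 cells were set against the 8 libraries numbered 1 and 2. They were chosen by the number in their titles, 1 from each of 4 groups of 3, and are 4 of 12 samples. Each group carried siRNA against the small GTPase gene RHOB (siRHOB) or a negative control siRNA (siNC), and was kept for 3 days in megakaryocyte differentiation medium (MK medium) or growth medium, which the labels call Ctl. The groups were thus siRHOB in MK medium, siNC in MK medium, siRHOB in growth medium and siNC in growth medium, and the study asked how RHOB bears on megakaryocyte and erythroid differentiation. All 12 samples are the same human leukaemia line, labelled WT, and what the MK medium contains was not stated in them. The labels do not say whether the numbers mark separate cultures, days or batches, so p-values rest on the spread seen among these libraries, part or all of which may be technical. Replicate 3 was singled out with the knowledge that it lay apart from the others.

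K562 is an established line from a chronic myeloid leukaemia in blast crisis that carries the BCR-ABL1 fusion. Its cells keep an early erythroid and megakaryocytic character: they hold embryonic and fetal globin transcripts, accumulate haemoglobin under some agents, and take on megakaryocyte features under others such as phorbol esters. Histone, mitotic, sterol, stress and immediate early genes in cultured cells are known to follow growth rate, nutrients, serum and handling. Whether any of these differed between the libraries here was not tested.

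RHOB itself, the target of the siRNA, differed between replicate 3 and the other libraries in both media, in opposite directions. Levels are CPM, a gene's share of the counted reads with library sizes scaled by TMM. RHOB stood at 22.1 and 32.7 CPM in replicate 3 in MK medium, against 12.6, 15.5, 12.8 and 10.1 CPM in replicates 1 and 2. Values in growth medium were 0.465 and 1.42 CPM in replicate 3, against 3.17, 3.3, 6.2 and 4.68 CPM in replicates 1 and 2. In growth medium both libraries numbered 3 lay below the other 4 (log2 fold change -2.22 ± 0.28, adjusted p = 2.46e-05, where ± is the standard error). With MK medium both lay above the other 4 (log2 fold change 1.10 ± 0.18, adjusted p = 0.000181). Within growth medium, RHOB was lower in siRHOB than in siNC at each number. In MK medium it was lower in siRHOB at numbers 3 and 1, at 22.1 against 32.7 CPM and 12.6 against 12.8 CPM, but not at number 2, at 15.5 against 10.1 CPM. In all values listed by library here, siRHOB precedes siNC, and replicate 1 precedes replicate 2 within each siRNA.

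The libraries held 34412558 to 54048161 counted reads, and totals averaged 3.87e+07 ± 3.49e+06 in replicate 3 and 4.08e+07 ± 6.13e+06 in replicates 1 and 2 (SD, n = 4 and 8). An exact permutation test within groups, two-sided over 81 arrangements, gave p = 0.506 for the total. Replicate 3 had more genes with a read, 15390 ± 701 against 14960 ± 674, and a lower share of reads on ribosomal protein genes, 3.95% ± 0.73 against 4.30% ± 0.561. The exact permutation p was 0.0123 for each of these, the smallest the design allows, and 0.0246 after adjustment over 4 library measures. The K562 markers GATA1, TAL1, LMO2, KLF1, HBE1, HBZ and TFRC had reads in all 12 libraries. CDKN2A and CDKN2B, a locus known to be deleted in this line, had 0 reads in all 12. No 2 libraries were copies: within groups the chi-square per gene was 49.9 to 149 for pairs with replicate 3 and 4.21 to 22.1 between replicates 1 and 2.

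The replicate 3 libraries differed from the others in 4942 genes. In a separate test over all genes tested, the size or direction of their difference depended on the medium for 3655, which need not be among the 4942. Of 14026 genes tested, 2628 were higher in replicate 3 (18.7%) and 2314 lower (16.5%) at an adjusted p under 0.05 in edgeR's quasi-likelihood test with the 4 groups as covariate. Of these, 980 were higher and 115 lower by more than 2-fold. Replicate 3 lay above both other libraries in all 4 groups for 1983 genes (14.1%) and below both in all 4 groups for 2078 (14.8%). Within MK medium 3122 genes were higher (22.3%) and 2899 lower (20.7%), and within growth medium 2391 were higher (17.0%) and 2442 lower (17.4%). Without replicate 3 of siNC in MK medium the calls there numbered 2859, against 6021 with all libraries, and without replicate 3 of siNC or of siRHOB in growth medium they numbered 2722 and 2875 there, against 4833. Both media called 1075 genes higher and 1054 lower, while 293 were higher in MK medium and lower in growth medium, and 216 the reverse. The median over all genes tested was 0.01 on the log2 scale.

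The deviation of replicate 3 from the mean of replicates 1 and 2 was alike between siRNAs of the same medium. Across the 14026 genes, as a description with genes that are not independent, Pearson's r between the 2 siRNA groups was 0.834 in MK medium and 0.679 in growth medium. Between groups of different media it was 0.34 to 0.364. The corresponding r for replicate 2 minus replicate 1 lay between -0.0651 and 0.0512 over the 6 pairs of groups. The test of replicate 2 against replicate 1 called 0 genes (0%) in edgeR, with 139 at an unadjusted p under 0.05, and 0 in DESeq2. The replicate 3 effect differed between siRHOB and siNC for 0 genes (0%) in edgeR, with 272 at an unadjusted p under 0.05, and 0 in DESeq2. Neither fit had a replicate 3 term for each medium, so the difference between media went into the spread. These tests therefore cannot show that the siRNA arms, or replicates 1 and 2, were alike.

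**Figure D1:**
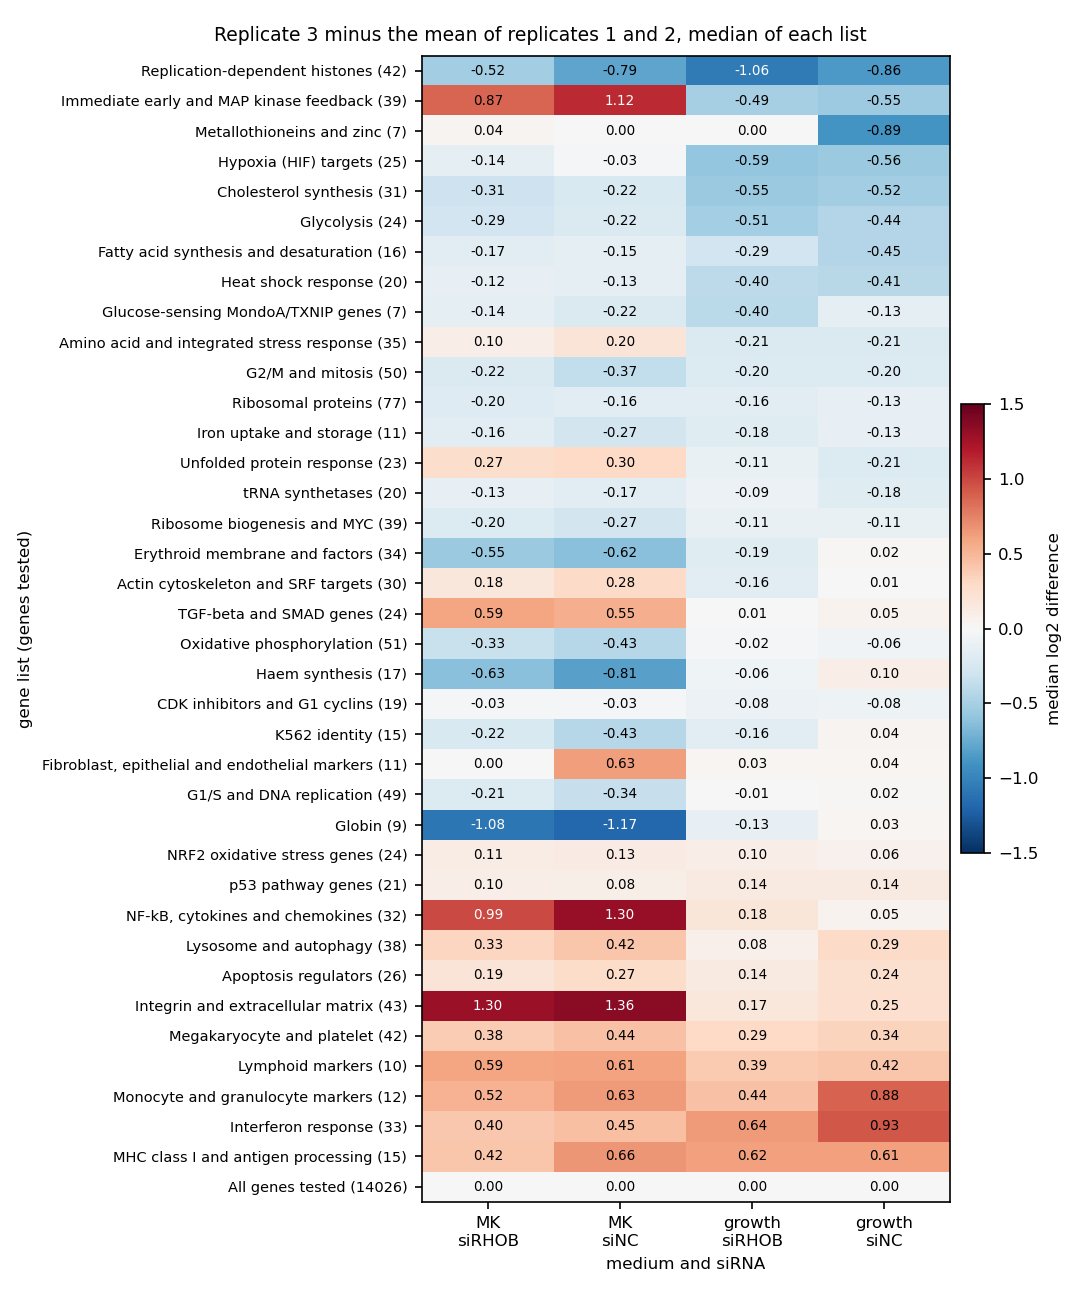
Median log2 difference between replicate 3 and the mean of replicates 1 and 2 for each gene list (rows, with the number of genes tested) in each of the 4 groups (columns). The histone row is blue in all 4 columns, from -0.52 to -1.06, while the immediate early row is red in MK medium (0.87 and 1.12) and blue in growth medium (-0.49 and -0.55).

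The genes named first moved most among those with replicate 3 on the same side of both other libraries in all 4 groups. They had a mean of at least 5 CPM in replicate 3 or in replicates 1 and 2, whichever was higher, so a gene near 0 elsewhere could pass through the set in which it was high. Among the 12 largest rises were IL1B, EFEMP1, RLN3, CEACAM1, BRINP3, F2RL1, TNS3, LUZP4, SLAMF6, ZG16B and ITGAX. ZG16B had 11 reads in replicate 3 in growth medium, against 9 in replicates 1 and 2, and did not pass the test there (adjusted p = 0.322), so its rise rests on MK medium. RLN3 did not pass in growth medium either, with 94 reads against 33 (adjusted p = 0.0618). CEACAM1 and TNS3 passed there on few reads, 24 against 10 and 13 against 2. Among the 12 largest falls were MUC19, SSX2, HIST1H3B, FAM178B, MS4A3, COL1A2, HIST1H2BF, PPM1E, CAB39L, CTAG2 and CAPN5. SSX2 passed in neither medium alone (adjusted p = 0.233 in MK medium and 0.142 in growth medium). Its siNC replicate 2 stood apart, at 10.1 CPM in MK medium and 23.8 CPM in growth medium. The other libraries numbered 1 and 2 held 1.41 to 2.46 CPM and 2.36 to 3.55 CPM, so the size of its fall rests largely on siNC replicate 2. EFEMP1 encodes the extracellular matrix protein fibulin-3. Levels of EFEMP1 in MK medium were 4.26 and 4.62 CPM in replicate 3 and 0.1, 0.141, 0.195 and 0.341 CPM in replicates 1 and 2. Growth medium gave 23 and 20.3 CPM in replicate 3 and 0.65, 0.985, 0.689 and 1.05 CPM in replicates 1 and 2. All 4 libraries numbered 3 lay above all 8 others (log2 fold change 4.62 ± 0.18, adjusted p = 2.93e-08). BRINP3, a gene best known from the nervous system, showed the same separation. The MK medium libraries gave BRINP3 25.6 and 20.3 CPM in replicate 3, against 1.85, 2.25, 2.34 and 1.62 CPM in replicates 1 and 2. The corresponding levels in growth medium were 8.87 and 6.87 CPM in replicate 3, against 0.379, 0.443, 0.561 and 0.349 CPM in replicates 1 and 2. Its log2 fold change was 3.79 ± 0.17 (adjusted p = 8.45e-08).

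IL1B, the gene of the inflammatory cytokine interleukin-1 beta, was high in MK medium alone. IL1B stood at 124 and 205 CPM in replicate 3 in MK medium, against 2.18, 2.15, 2.4 and 2.02 CPM in replicates 1 and 2. Values in growth medium were 0.049 and 0.0678 CPM in replicate 3, against 0.0271, 0.0246, 0 and 0 CPM in replicates 1 and 2. In MK medium the log2 fold change was 6.19 ± 0.12 (adjusted p = 7.93e-16). In growth medium IL1B had 5 reads in replicate 3 and 2 in replicates 1 and 2, a ratio of 4.94 with a 95% counting interval of 0.809 to 51.9, so the pooled value of 6.15 ± 0.20 (adjusted p = 6.86e-09) rests on MK medium. SLAMF6, a lymphocyte surface receptor (log2 fold change 3.41 ± 0.26, adjusted p = 5.01e-06), and F2RL1, the protease-activated receptor PAR2 (log2 fold change 3.71 ± 0.20, adjusted p = 5.2e-07), also rose.

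MUC19, a gel-forming mucin gene, gave the largest fall. Levels of MUC19 in MK medium were 1.32 and 1.15 CPM in replicate 3 and 19.7, 19.2, 17.8 and 20 CPM in replicates 1 and 2. Growth medium gave 1.86 and 2.46 CPM in replicate 3 and 28.8, 27, 25.5 and 33.2 CPM in replicates 1 and 2. Replicate 3 lay below every other library in both media (log2 fold change -3.83 ± 0.12, adjusted p = 6.86e-09). FAM178B, a gene of unsettled role (log2 fold change -1.82 ± 0.13, adjusted p = 3.06e-06), and MS4A3, a membrane protein of myeloid cells (log2 fold change -1.73 ± 0.27, adjusted p = 0.000795), fell in both media. COL1A2, a chain of type I collagen, fell as well (log2 fold change -1.68 ± 0.28, adjusted p = 0.00211). COL1A1, the gene of the other chain, went the opposite way and rose in all 4 groups (log2 fold change 1.86 ± 0.30, adjusted p = 0.00186).

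**Figure D2:**
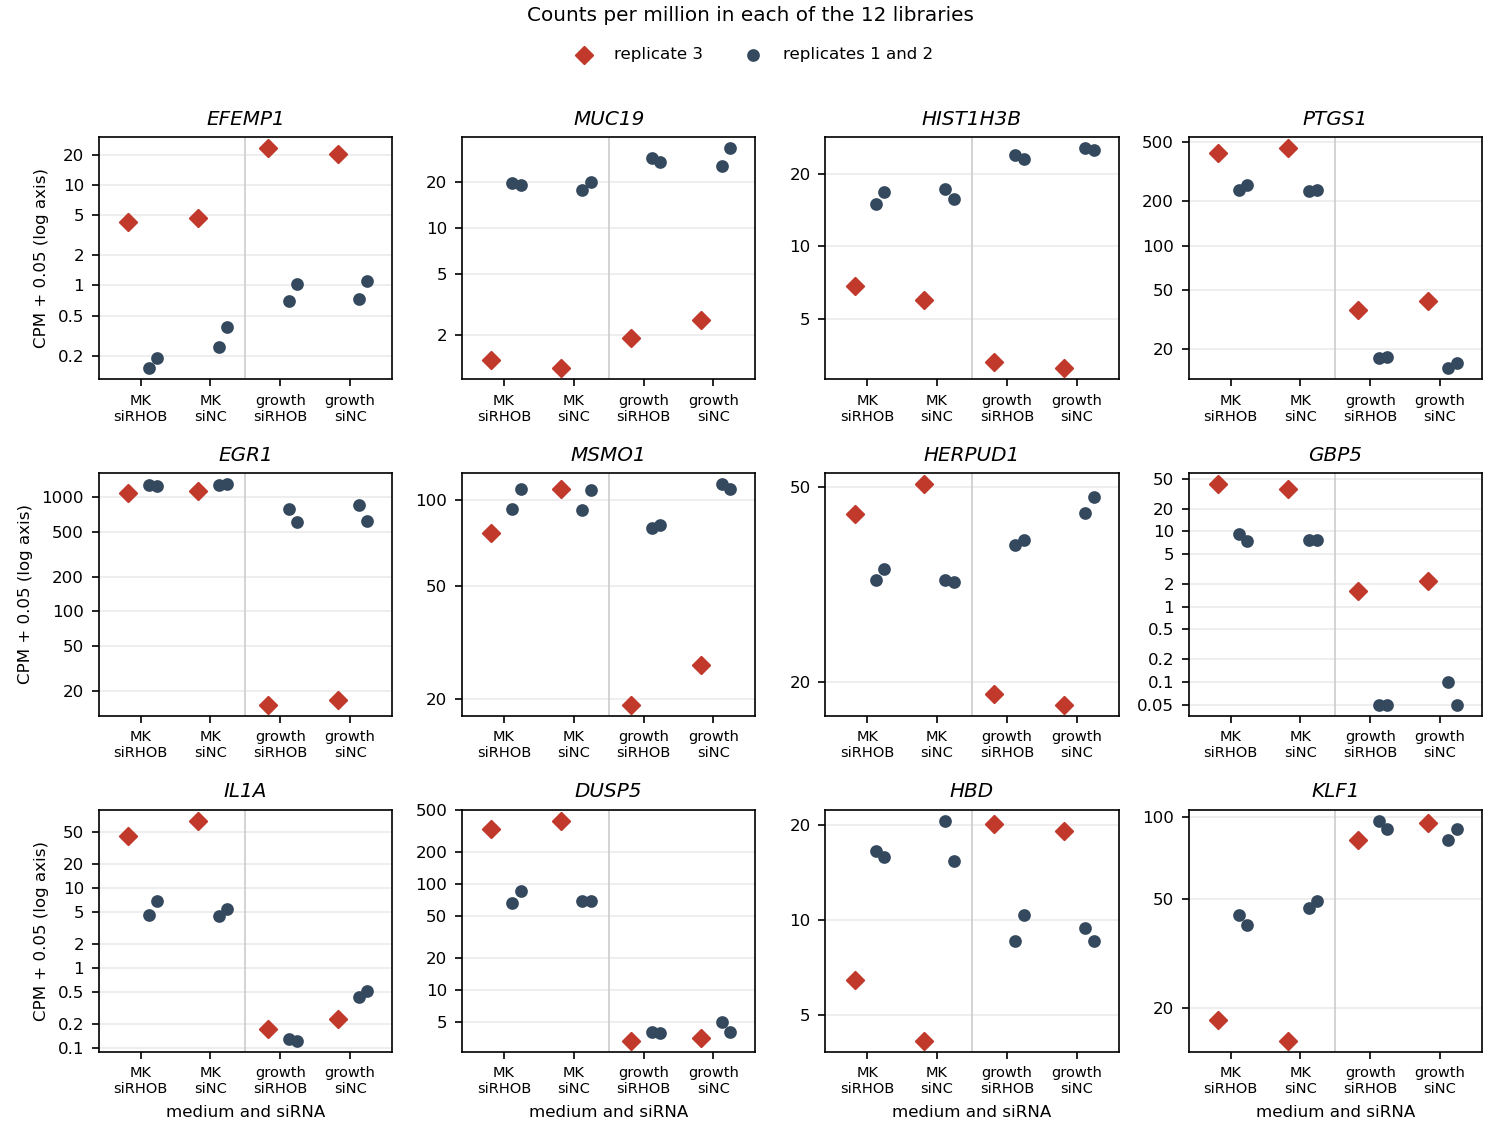
CPM plus 0.05 on a log axis for 12 genes in every library, by medium and siRNA, with red diamonds for replicate 3 and dark circles for replicates 1 and 2. EFEMP1, MUC19, HIST1H3B, PTGS1 and GBP5 separate replicate 3 the same way in all 4 groups, and so does EGR1, by far the most in growth medium. MSMO1 separates it most in growth medium, and IL1A, DUSP5 and KLF1 most in MK medium.

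Genes of DNA packaging, division and protein synthesis were lower in replicate 3 in both media. Replication-dependent histone genes, whose transcripts rise in S phase and usually lack a poly(A) tail, were lower for 35 of 42 tested and higher for 0, with a median log2 of -0.85 against 0.01 for all genes. HIST1H3B, an H3 gene, stood at 6.76 and 5.9 CPM in replicate 3 in MK medium, against 14.9, 16.7, 17.3 and 15.7 CPM in replicates 1 and 2. In growth medium it stood at 3.26 and 3.05 CPM, against 23.8, 23.1, 25.5 and 25 CPM, so no library numbered 3 reached the others (log2 fold change -2.07 ± 0.28, adjusted p = 0.000433). The linker histone HIST1H1C was lower by less (log2 fold change -0.74 ± 0.068, adjusted p = 1.58e-05). Histone genes are near-identical copies and poly(A) selection loses most of their transcripts, so single members are uncertain. The loss concerns the list as a whole too, and the part of poly(A) selection in its difference was not tested.

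The mitotic list was lower for 33 of 50 genes and higher for 0, with a median log2 of -0.23. Genes of the spindle and kinetochore made up 20 of the 33. BUB1, a spindle checkpoint kinase, stood at 180 and 163 CPM in replicate 3 in MK medium, against 249 to 269 CPM in replicates 1 and 2, and at 262 and 243 CPM in growth medium, against 382 to 404 CPM. Its change was -0.62 ± 0.043 (adjusted p = 2.05e-06). Genes of G1/S and DNA replication differed by medium: 37 of 49 were lower and 2 higher in MK medium, and 8 were lower and 8 higher in growth medium. Among all genes tested 17.4% were lower and 17.0% higher in growth medium. Ribosomal protein genes were lower for 34 of 77 and higher for 0, with a small median of -0.15, and RPL19 fell with them (log2 fold change -0.26 ± 0.05, adjusted p = 0.00188). MYC, the growth-driving transcription factor, was lower (log2 fold change -0.27 ± 0.056, adjusted p = 0.00381), while CCND1, the G1 cyclin D1, was higher (log2 fold change 0.63 ± 0.06, adjusted p = 2.11e-05). CDKN1A, the cell cycle inhibitor p21, was higher as well (log2 fold change 0.52 ± 0.1, adjusted p = 0.00211). In its list of cyclins and inhibitors 3 of 19 were higher and 2 lower, against 18.7% and 16.5% of all genes tested.

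Sterol and fatty acid synthesis and sugar use were lower in replicate 3, most of all in growth medium. Of 31 cholesterol genes 20 were lower and 1 higher over both media, with 17 lower and 2 higher in MK medium (median log2 -0.24) and 26 lower and 1 higher in growth medium (median -0.52). MSMO1 encodes a sterol C4 demethylase. The MK medium libraries gave MSMO1 76.2 and 109 CPM in replicate 3, against 92.5, 109, 92.1 and 108 CPM in replicates 1 and 2. The corresponding levels in growth medium were 19.1 and 26.2 CPM in replicate 3, against 79.7, 81.5, 113 and 109 CPM in replicates 1 and 2. In growth medium both libraries numbered 3 lay below the other 4 (log2 fold change -2.08 ± 0.12, adjusted p = 6.21e-09), and in MK medium their values overlapped (log2 fold change -0.13 ± 0.10, adjusted p = 0.324). SREBF2, the transcription factor that drives this pathway and a gene named here after its values were seen, was 194 and 191 CPM in replicate 3 in MK medium, against 244 to 264 CPM, and 147 and 174 CPM in growth medium, against 204 to 228 CPM (log2 fold change -0.41 ± 0.05, adjusted p = 0.000104).

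Because SREBF2 is both the regulator and a member that fell in both media, its start region is shown from RefSeq, on the plus strand of chr22:41832855-41833154. All promoter windows here are from RefSeq's GRCh38.p14, which is not the build of the counts, and run from 250 bases before to 50 bases after the annotated start. Capitals mark CACCCCAC, the core of the sterol response element, 132 bases before the start.
SREBF2: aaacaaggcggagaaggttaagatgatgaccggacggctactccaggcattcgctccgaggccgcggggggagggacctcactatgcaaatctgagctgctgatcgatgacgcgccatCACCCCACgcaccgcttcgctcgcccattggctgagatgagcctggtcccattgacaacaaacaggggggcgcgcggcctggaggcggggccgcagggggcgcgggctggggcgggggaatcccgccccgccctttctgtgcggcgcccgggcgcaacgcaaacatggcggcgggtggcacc
CACCCCAC on either strand was found in 2 of 24 windows of the cholesterol list (8.33%), in 290 of 10862 windows of genes tested (2.67%) and in 742 of 27305 windows in all (2.72%). A match describes the letters and is no evidence of binding.

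Fatty acid synthesis and desaturation genes were lower for 10 of 16 and higher for 1, and FASN, the fatty acid synthase, fell in both media. FASN stood at 462 and 419 CPM in replicate 3 in MK medium, against 692, 711, 669 and 712 CPM in replicates 1 and 2. Values in growth medium were 659 and 733 CPM in replicate 3, against 1440, 1220, 1290 and 1300 CPM in replicates 1 and 2. Replicate 3 lay below the others in each medium (log2 fold change -0.79 ± 0.065, adjusted p = 6.77e-06). TXNIP, a thioredoxin-binding protein that responds to glucose, fell in all 4 groups (log2 fold change -1.06 ± 0.065, adjusted p = 7.78e-07). Its relative ARRDC3 fell to 30.1 and 31.1 CPM in replicate 3 in growth medium, against 166 to 193 CPM in the others (log2 fold change -2.54 ± 0.08, adjusted p = 1.44e-12). Glycolysis genes were lower for 17 of 24 in each medium, with a median of -0.25 in MK medium and -0.50 in growth medium. In MK medium 3 were higher. LDHA, lactate dehydrogenase A, fell over both media (log2 fold change -0.83 ± 0.097, adjusted p = 0.000112), and ALDOC, an aldolase, fell furthest in growth medium (log2 fold change -2.05 ± 0.093, adjusted p = 1.05e-10). Targets of the hypoxia factor HIF were lower for 6 of 25 and higher for 7 in MK medium, near the shares of all genes tested there (20.7% and 22.3%). In growth medium 15 were lower and 1 higher, against 17.4% and 17.0% of all genes tested. Among them were PPFIA4 (log2 fold change -2.98 ± 0.14, adjusted p = 1.1e-10) and BNIP3, a mitophagy receptor (log2 fold change -1.48 ± 0.09, adjusted p = 3.58e-09), both given for growth medium. SDHB, the iron-sulphur subunit of succinate dehydrogenase, was lower in both media (log2 fold change -0.54 ± 0.041, adjusted p = 3.26e-06).

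Interferon and antigen presentation genes were higher in replicate 3 in both media. The interferon list was higher for 15 of 33 and lower for 2, with a median log2 of 0.73, and the MHC class I list was higher for 9 of 15 and lower for 1. SAMD9L, an antiviral and growth-restraining protein, showed no overlap. Levels of SAMD9L in MK medium were 13.9 and 12.2 CPM in replicate 3 and 2.51, 2.34, 3.04 and 2.53 CPM in replicates 1 and 2. Growth medium gave 4.95 and 4.61 CPM in replicate 3 and 0.271, 0.542, 0.255 and 0.233 CPM in replicates 1 and 2. Its change was 3.01 ± 0.27 (adjusted p = 1.58e-05). HLA-E, a non-classical MHC class I gene, rose as well (log2 fold change 0.98 ± 0.19, adjusted p = 0.00415), with the caution that HLA genes share reads. GBP5, a guanylate-binding protein induced by interferon gamma, had 158 reads in replicate 3 in growth medium and 2 in replicates 1 and 2, a ratio of 156 with a 95% counting interval of 42.5 to 1300. In MK medium it stood at 41.9 and 36.9 CPM, against 7.45 to 9.25 CPM (log2 fold change 2.31 ± 0.13, adjusted p = 8.28e-10). Its neighbour in the family, GBP4, had 134 reads against 0 in growth medium, at least 88.3-fold higher when 3 reads are taken as the limit for replicates 1 and 2 together, and rose in MK medium too (log2 fold change 1.53 ± 0.11, adjusted p = 1.05e-07).

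IRF1, a transcription factor that interferon gamma induces, is shown since it rose in both media and its promoter is known for a gamma-activated site. The MK medium libraries gave IRF1 19 and 22.8 CPM in replicate 3, against 8.72, 8.95, 9.2 and 8.36 CPM in replicates 1 and 2. The corresponding levels in growth medium were 9.38 and 9.13 CPM in replicate 3, against 6.04, 5.98, 6.33 and 5.46 CPM in replicates 1 and 2. All libraries numbered 3 lay above the others of their medium (log2 fold change 0.96 ± 0.12, adjusted p = 0.000118). The window is on the minus strand at chr5:132490724-132491023, and capitals mark TTCNNNGAA, the gamma-activated sequence, 124 bases before the start.
IRF1: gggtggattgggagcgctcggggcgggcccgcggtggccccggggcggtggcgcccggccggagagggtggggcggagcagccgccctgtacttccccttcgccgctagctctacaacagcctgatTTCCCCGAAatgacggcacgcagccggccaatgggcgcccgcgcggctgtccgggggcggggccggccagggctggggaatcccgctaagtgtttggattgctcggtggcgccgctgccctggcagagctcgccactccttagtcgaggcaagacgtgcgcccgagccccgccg
TTCNNNGAA on either strand was found in 7 of 25 windows of the interferon list (28%), in 684 of 10862 windows of genes tested (6.3%) and in 2152 of 27305 in all (7.88%). Genes with a match included IFITM1, which fell, and BST2, which did not pass, both named after their values were seen.

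Some markers of myeloid cells were higher too, while the short lymphoid list stayed near the shares of all genes and shows no trait of its own. Of 10 lymphoid markers tested 3 were higher and 0 lower over both media, against 18.7% higher among all genes. In MK medium 3 were higher and 1 lower, against 22.3% and 20.7%. In growth medium 3 were higher and 0 lower, against 17.0% and 17.4%. Of 12 monocyte and granulocyte markers 5 were higher and 0 lower over both media. Their summed levels ranged from 21.6 to 232 CPM in replicate 3 and from 16 to 149 CPM in the others for the lymphoid list, and from 143 to 333 CPM and from 84.8 to 249 CPM for the myeloid list. These ranges span both media, so they do not compare replicate 3 with the others of its group. Of the lymphoid list 2 members had no reads in any library, among them the B-cell gene MS4A1. ITGAM, the myeloid integrin CD11b, rose in all 4 groups (log2 fold change 3.00 ± 0.32, adjusted p = 3.85e-05), and its partner family member ITGAX, CD11c, did too (log2 fold change 3.38 ± 0.24, adjusted p = 3.83e-06), though ITGAX rested on 38 reads against 3 in growth medium. LYZ, lysozyme, rose in growth medium (log2 fold change 1.37 ± 0.065, adjusted p = 9.25e-11) and did not pass in MK medium (log2 fold change -0.16 ± 0.067, adjusted p = 0.064). MS4A3, the myeloid membrane protein given above, fell in both media. The part of other cells in these differences was not tested, and in bulk RNA more cells of a type and more RNA per cell cannot be told apart.

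More platelet, matrix, lysosomal and apoptosis genes were higher than lower in replicate 3 in each medium. Of 42 megakaryocyte and platelet genes 21 were higher and 2 lower, with medians of 0.40 in MK medium (26 higher, 5 lower) and 0.33 in growth medium (19 higher, 5 lower). PTGS1, cyclooxygenase 1 of platelets, stood at 422 and 454 CPM in replicate 3 in MK medium, against 238, 258, 234 and 236 CPM in replicates 1 and 2. In growth medium it stood at 36.7 and 42.1 CPM, against 17.5, 17.8, 14.8 and 16.2 CPM, and no library numbered 3 overlapped the others of its medium (log2 fold change 1.05 ± 0.08, adjusted p = 4.09e-06). ITGB3, the platelet fibrinogen receptor subunit, rose to 1130 and 1190 CPM in MK medium, against 608 to 716 CPM, and to 6.05 and 8.88 CPM in growth medium, against 1.4 to 2.23 CPM (log2 fold change 1.33 ± 0.22, adjusted p = 0.00216). SPARC, osteonectin of platelet alpha granules, rose likewise (log2 fold change 1.54 ± 0.098, adjusted p = 1.22e-06).

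Integrin and matrix genes were higher for 29 of 43 and lower for 3 over both media, with a median log2 of 0.96, and in growth medium 16 were higher and 7 lower. Lysosome and autophagy genes were higher for 24 of 38 and lower for 0 over both media; 16 of the 24 encode hydrolases, such as the cathepsin CTSB (log2 fold change 0.87 ± 0.16, adjusted p = 0.00285), and 2 of the 24 belong to the autophagy machinery. By medium, 25 were higher and 2 lower in MK medium, and 17 were higher and 6 lower in growth medium. Of the 9 autophagy genes 3 were higher and 0 lower in MK medium, and 1 was higher and 5 lower in growth medium. Apoptosis regulators were higher for 12 of 26 and lower for 1 over both media, with 15 higher and 0 lower in MK medium and 11 higher and 6 lower in growth medium. They comprised both BCL2L11, the death-promoting BIM (log2 fold change 0.70 ± 0.072, adjusted p = 3.38e-05), and BIRC3, an inhibitor of apoptosis (log2 fold change 2.85 ± 0.35, adjusted p = 0.000132). NQO1, a quinone reductase under NRF2, rose in both media (log2 fold change 0.95 ± 0.094, adjusted p = 3e-05), whereas AKR1C1, an aldo-keto reductase of the same list that shares reads with AKR1C2, rose in growth medium (log2 fold change 1.00 ± 0.065, adjusted p = 4.88e-09) and was lower in MK medium (log2 fold change -0.38, adjusted p = 0.0002). SMAD7, the feedback inhibitor of TGF-beta signalling, rose by about the same size in both media (log2 fold change 1.11 ± 0.082, adjusted p = 3.09e-06).

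Immediate early genes were lower in replicate 3 in growth medium. In a list of 39 genes of the early response and its kinase feedback, 23 were lower and 1 higher in growth medium, with a median log2 of -0.61. EGR1, a zinc finger factor induced within minutes by serum and stress, stood at 15.3 and 16.7 CPM in replicate 3 in growth medium, against 779, 606, 858 and 615 CPM in replicates 1 and 2. FOS, an AP-1 subunit induced with it, stood at 1.15 and 1.49 CPM, against 65.4, 47.3, 113 and 65.6 CPM. Replicate 3 was thus far below all other growth-medium libraries for both, with log2 fold change -5.48 ± 0.18, adjusted p = 1.65e-08 for EGR1 and log2 fold change -5.78 ± 0.36, adjusted p = 1.8e-05 for FOS. IER2 (log2 fold change -1.70 ± 0.08, adjusted p = 1.05e-10) and the matricellular gene CYR61 (log2 fold change -2.50 ± 0.15, adjusted p = 2.89e-09) fell with them. In MK medium EGR1 was 1090 and 1130 CPM in replicate 3, against 1250 to 1290 CPM, and FOS was 99 and 105 CPM, against 86.3 to 95.6 CPM, and neither passed the test there (adjusted p = 0.227 and 0.581).

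The start region of EGR1 is shown because this member fell far and its window holds CArG boxes, the element bound by serum response factor. It is on the plus strand at chr5:138465229-138465528. Capitals mark 2 matches, 105 and 83 bases before the start.
EGR1: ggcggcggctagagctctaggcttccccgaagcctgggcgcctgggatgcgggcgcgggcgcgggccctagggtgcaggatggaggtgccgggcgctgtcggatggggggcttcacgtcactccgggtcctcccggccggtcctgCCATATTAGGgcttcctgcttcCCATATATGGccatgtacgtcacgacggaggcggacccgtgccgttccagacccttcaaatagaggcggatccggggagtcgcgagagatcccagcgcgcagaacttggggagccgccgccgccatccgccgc
The CArG box was found in 2 of 30 windows of the immediate early list (6.67%), in 113 of 10862 windows of genes tested (1.04%) and in 351 of 27305 in all (1.29%).

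Protein folding genes were also lower in growth medium. Of 23 unfolded protein response genes 11 were lower and 0 higher there, and of 20 heat shock genes 14 were lower and 1 higher. HSPA5, the chief chaperone of the endoplasmic reticulum, fell in growth medium (log2 fold change -0.85 ± 0.063, adjusted p = 2.11e-08). HERPUD1, which serves degradation of misfolded proteins there, stood at 18.8 and 17.9 CPM in replicate 3 in growth medium, against 38.1 to 47.6 CPM (log2 fold change -1.19 ± 0.089, adjusted p = 2.54e-08). In MK medium the same gene stood at 44.1 and 50.6 CPM, against 32 to 33.9 CPM (log2 fold change 0.54 ± 0.082, adjusted p = 5.13e-05), and 16 of the 23 unfolded protein response genes were higher and 1 lower. Heat shock genes in MK medium were higher for 4 and lower for 9. Of the 9 genes in the globin list 2 rose and 3 fell in growth medium, against 17.0% higher and 17.4% lower among all genes tested. The 2 that rose are of the beta cluster. Of the 3 that fell 2 are of the alpha cluster, whose 4 genes had a median log2 of -0.33. The other is AHSP, which encodes a globin chaperone and is no globin (log2 fold change -1.06 ± 0.30, adjusted p = 0.0109). HBE1, the embryonic epsilon chain, rose in growth medium to 1560 and 2060 CPM, against 891 to 1180 CPM (log2 fold change 0.75 ± 0.091, adjusted p = 5.48e-05). HBD, the delta chain, rose to 20.1 and 19.1 CPM, against 8.52 to 10.3 CPM (log2 fold change 1.09 ± 0.15, adjusted p = 2.8e-05).

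In MK medium the replicate 3 libraries had higher inflammatory, immediate early and remodelling genes. Of 32 NF-kB, cytokine and chemokine genes 24 were higher and 0 lower (median log2 1.19), against 7 higher and 5 lower in growth medium. IL1A, the gene of interleukin-1 alpha, stood at 44.4 and 68.9 CPM in replicate 3 in MK medium, against 4.56, 6.82, 4.35 and 5.32 CPM in replicates 1 and 2 (log2 fold change 3.41 ± 0.18, adjusted p = 2.45e-09). CSF1, the macrophage growth factor, rose there by less (log2 fold change 1.34 ± 0.079, adjusted p = 1.06e-09). All 9 feedback genes of the list, its inhibitors and regulators, were higher in MK medium.

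Of the 39 immediate early and feedback genes 28 were higher and 0 lower in MK medium, with a median of 1.01. DUSP5, a phosphatase that switches off ERK, stood at 328 and 394 CPM in replicate 3, against 66.2, 85.5, 68.1 and 68.6 CPM in the others (log2 fold change 2.32 ± 0.096, adjusted p = 2.67e-10). NR4A1, an orphan nuclear receptor induced early, rose too (log2 fold change 1.32 ± 0.088, adjusted p = 1.05e-08). TGF-beta and SMAD genes were higher for 18 of 24 and lower for 0, among them ID3, a dominant-negative helix-loop-helix protein (log2 fold change 2.10 ± 0.13, adjusted p = 2.36e-09). Integrin and matrix genes were higher for 29 of 43 and lower for 2 in MK medium, with a median of 1.40. They included PLAUR, the urokinase receptor (log2 fold change 2.10 ± 0.12, adjusted p = 2.23e-09), and COL6A2, a chain of type VI collagen (log2 fold change 2.82 ± 0.16, adjusted p = 8.09e-10). GDF15, a stress-induced cytokine, rose there as well (log2 fold change 1.65 ± 0.098, adjusted p = 1.25e-08).

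Erythroid genes were lower in replicate 3 in MK medium. Of 34 erythroid membrane and factor genes 26 were lower and 1 higher (median log2 -0.58). Of 17 genes of haem synthesis, transport and breakdown 12 were lower and 2 higher (median -0.73). Of the 9 genes in the globin list 8 were lower and 0 higher (median -1.12). The 8 were 3 of the alpha cluster, 4 of the beta cluster and the chaperone gene AHSP. In growth medium the counts, in the same order, were 12 lower and 9 higher, 5 lower and 4 higher, and 3 lower and 2 higher. Among all genes tested 17.4% were lower and 17.0% higher there, against 20.7% and 22.3% in MK medium. KLF1, the erythroid transcription factor, stood at 18 and 15.1 CPM in replicate 3 in MK medium, against 43.5, 40, 46.4 and 49.1 CPM in replicates 1 and 2 (log2 fold change -1.43 ± 0.10, adjusted p = 1.87e-08). Replicate 3 lay below every other MK library, whereas in growth medium KLF1 was 81.9 and 94.5 CPM in replicate 3 and 81.9 to 96.7 CPM in the others.

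SLC25A37, the mitochondrial iron importer, fell in MK medium (log2 fold change -1.44 ± 0.067, adjusted p = 6.44e-11). HBD fell to 6.4 and 4.11 CPM, against 15.3 to 20.6 CPM (log2 fold change -1.71 ± 0.17, adjusted p = 6.07e-07). HBG1, a fetal gamma chain that shares reads with HBG2, fell too (log2 fold change -1.12 ± 0.20, adjusted p = 0.00327), although the call was lost without replicate 3 of siNC in MK medium (log2 fold change -1.02, adjusted p = 0.0666). GATA1, the erythroid and megakaryocytic master factor, was lower in MK medium (log2 fold change -0.43 ± 0.07, adjusted p = 0.000106). In growth medium it did not pass (log2 fold change -0.09 ± 0.07, adjusted p = 0.331). The value pooled over both media was -0.26 ± 0.074 (adjusted p = 0.0187). That pooled call was lost in limma on FPKM (adjusted p = 0.0932 and 0.0926 with a pseudocount of 1 and 0.1). GATA1 also lost it without replicate 3 of siNC (log2 fold change -0.19, adjusted p = 0.0895) or of siRHOB (-0.20, 0.0849) in MK medium. TAL1, its partner, did not pass (log2 fold change 0.05 ± 0.048, adjusted p = 0.434). Oxidative phosphorylation genes were lower for 43 of 51 and higher for 0 in MK medium, against 11 lower and 5 higher in growth medium, with NDUFV1 of complex I as an example (log2 fold change -0.65 ± 0.057, adjusted p = 1.11e-07). CDC25A, the phosphatase that opens S phase, fell in MK medium (log2 fold change -0.51 ± 0.065, adjusted p = 7.74e-06).

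**Figure D3:**
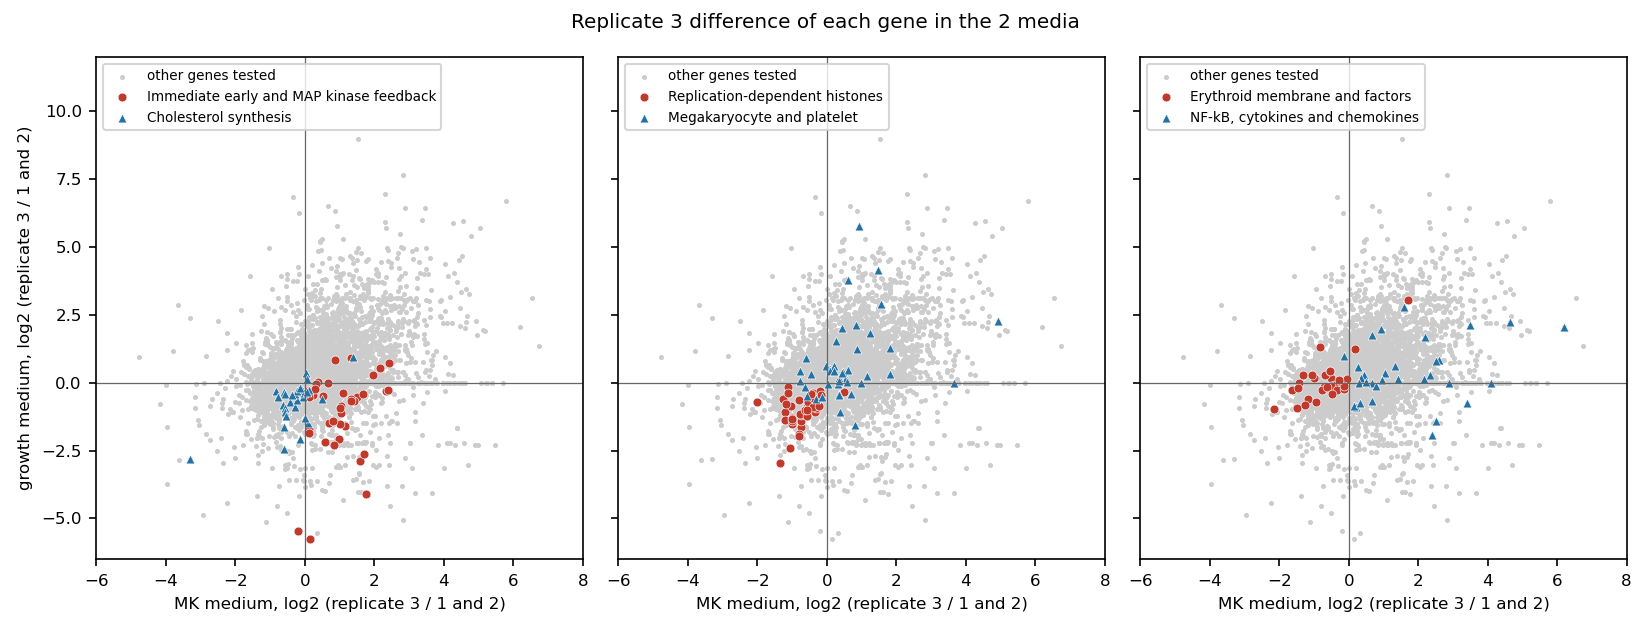
Log2 fold change of replicate 3 over replicates 1 and 2 for each gene tested, in MK medium (x axis) and growth medium (y axis), with 2 gene lists coloured in each panel; 1 of 14026 genes lies beyond the axes, and genes with few reads in growth medium line up at fixed values. Immediate early genes lie to the lower right (medians 1.01 in MK medium and -0.61 in growth medium), histone genes to the lower left (-0.74 and -0.97) and erythroid genes to the left (-0.58 and -0.10).

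The difference between media was itself tested. The replicate 3 effect in MK medium was above that in growth medium for 1780 genes (12.7%) and below it for 1875 (13.4%), and without replicate 3 of siNC in MK medium the calls numbered 1745, against 3655. For 33 of 39 immediate early genes it was above and for 0 below, for 17 of 23 unfolded protein response genes above and for 0 below, and for 16 of 25 HIF targets above and for 1 below. It was below for 23 of 34 erythroid genes, 13 of 17 genes of haem synthesis, transport and breakdown and 34 of 51 oxidative phosphorylation genes, with 0, 2 and 0 above. Among genes that averaged 5 CPM or more in at least 1 of the 4 combinations of medium and replicate set, the 6 with the largest positive difference were CYP4F2, CHI3L1, PCSK1, SBSN, APP and FOS, and those with the largest negative difference were GBP4, DMBT1, NLRC5, KIRREL, GBP5 and CAMK2A. They could pass that limit through the set in which they were high alone. Most of them had few reads in growth medium in one or both sets of libraries, and their fitted values are no bounds.

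Seen the other way, the response to MK medium differed between the numbers. The median over the globin list, AHSP included, of MK minus growth medium, in mean log2 CPM, was -0.20 in replicate 3 and 0.85 in replicates 1 and 2. For immediate early genes it was 3.20 and 1.14, for cytokine and NF-kB genes 2.52 and 1.64, for HIF targets 1.21 and 0.45, and for megakaryocyte and platelet genes 1.75 and 2.05. These values come from the same libraries as the difference between media, given by replicate, but from mean log2 CPM and not from the fit. The 2 measures need not agree: for megakaryocyte and platelet genes the median of the fitted difference between media was 0.07.

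**Figure D4:**
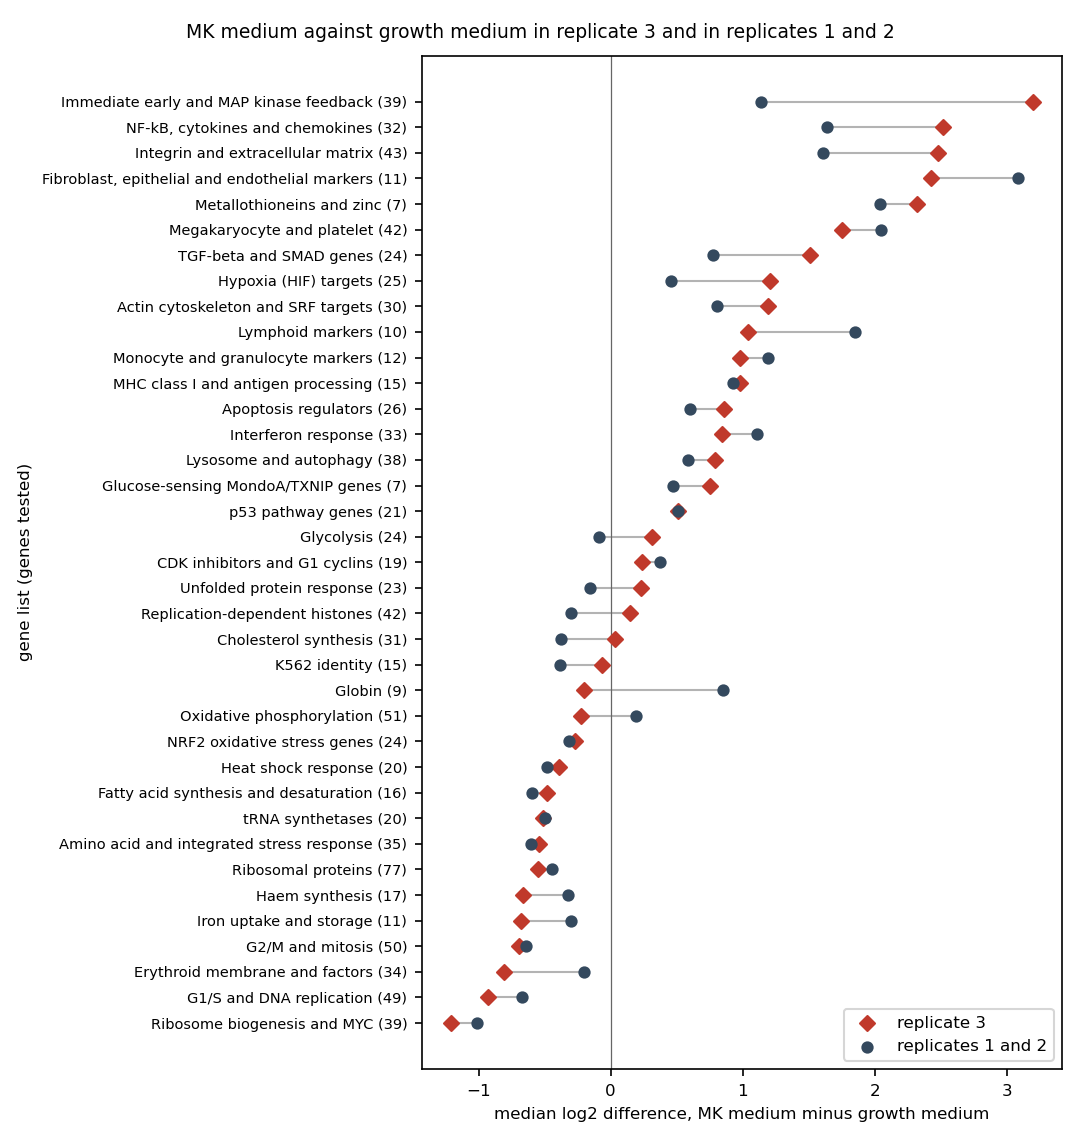
Median log2 difference between MK medium and growth medium over the genes of each list, in replicate 3 (red diamonds) and in replicates 1 and 2 (dark circles). Immediate early genes stand at 3.20 in replicate 3 and 1.14 in the others, and the globin list at -0.20 and 0.85.

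Properties of the gene models and chromosomes followed the replicate number little. In 5 bins of the gene lengths the deposited tables imply, the median log2 difference of replicate 3 lay between -0.02 in the shortest and 0.03 in the longest. Over chromosomes, for 9695 genes of at least 200 mean reads placed by RefSeq gene names, the medians lay between -0.14 and 0.04. Markers of fibroblasts, epithelium and endothelium were higher for 3 of 11 and lower for 2, against 18.7% and 16.5% of all genes tested. The summed level of these markers, over libraries of both media, was 994 to 6250 CPM in replicate 3 and 1050 to 9070 CPM in the others. CDH5, the endothelial cadherin, had 151 reads over the libraries numbered 3 and 0 over the other 8. The part of such cells in the differences was not tested.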

How the data were processed

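RNA was measured in 12 K562 libraries, which per the labels were made from polyT-selected, fragmented RNA and amplified by PCR. The authors deposited whole-number read counts per gene and FPKM values, which follow from those counts, a constant length for each gene and the library's total. Per the submitters' processing notes the build was GRCh37.p13 and the tools, whose roles and order they leave out, were HISAT2 2.2.1, featureCounts 2.0.2 and edgeR. Strand and multi-mapping settings are not stated there, so overlapping genes and near-identical copies are uncertain.

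The 4 libraries numbered 3 were compared with the 8 numbered 1 and 2 by edgeR 4.0.16 (R 4.3.3, limma 3.58.1): quasi-likelihood F test, two-sided, robust, TMM, filterByExpr by group, Benjamini-Hochberg adjusted p under 0.05. All 14026 of 19225 genes that passed the filter were fitted together, with the 4 groups as covariate. Effects within media and their difference came from a fit with 1 replicate 3 term per medium, and effects by siRNA from 1 per siRNA. The scripts were tested on simulated data. Alternatives were RLE scaling, no filter, DESeq2 1.42.0, limma on log2(FPKM + 1) and log2(FPKM + 0.1), a test against 1.5-fold, each medium alone, a replicate block, and each library left out in turn. Figures used matplotlib.

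The comparison, the 38 gene lists and the naming rule were chosen with earlier results of these data known. Of the lists, 37 had members in the table, and nuclear long non-coding RNAs were not analysed here. Named genes are, among called genes that averaged 5 CPM or more in the higher set (replicate 3 or replicates 1 and 2, and for the difference between media the highest combination of set and medium), the 12 that rose most and the 12 that fell most and lie outside replicates 1 and 2 on the same side in all 4 groups, the 6 largest differences between media each way, up to 4 genes per list by smallest adjusted p, and RHOB, GATA1, TAL1, HBG1, HBE1, CDKN2A, CDKN2B, MYC and CDKN1A. Some genes these rules name are not reported here. Replicate numbers come from the titles, and the labels do not tie a number to a culture or day. As a check, the deviations of same-numbered libraries correlated at 0.34 to 0.834 for number 3. Intervals and limits for low counts hold for counting error alone, because reads copied by PCR are not separate molecules.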

Additional observations from a re-analysis of the deposited data

Results flagged for a closer look

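The effect of replicate 3 differed between MK medium and growth medium for 3655 genes, by the test of that difference in edgeR. Genes given above with a level or fold change, and those named for the largest differences between media, appear here where they passed this test. Values are the log2 fold change of replicate 3 in MK medium minus that in growth medium. Genes that were only named above are not all listed, and some of them passed, such as LUZP4 at -1.92 and HIST1H2BF at 1.32.

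Early response and feedback genes stood among the positive differences: FOS 5.94, EGR1 5.28, CYR61 2.71, DUSP5 2.63, NR4A1 1.93 and IER2 1.83. So did inflammatory and remodelling genes, with IL1A at 4.14, ID3 at 2.56, COL6A2 at 2.42, PLAUR at 2.03, GDF15 at 1.92, SLAMF6 at 1.38, HLA-E at 1.15, CTSB at 0.91, CSF1 at 0.71, IRF1 at 0.60 and NQO1 at 0.45. Genes of sterols, sugar use and folding were less low or higher in MK medium, with PPFIA4 at 2.50, ARRDC3 at 2.16, MSMO1 at 1.95, HERPUD1 at 1.73, BNIP3 at 1.42, ALDOC at 1.36, HSPA5 at 1.09, LDHA at 0.49 and FASN at 0.26. RHOB itself differed by 3.32. HIST1H3B differed by 1.59, HIST1H1C by 0.32 and RPL19 by 0.23.

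Erythroid genes stood among the negative differences, with HBD at -2.80, KLF1 at -1.41, HBG1 at -1.17, HBE1 at -1.02, SLC25A37 at -0.97 and GATA1 at -0.33. LYZ stood at -1.53 and AKR1C1 at -1.39. Genes that rose in both media, by more in growth medium, were negative too: COL1A1 -1.86, SAMD9L -1.56, ITGB3 -1.26, SPARC -0.61 and PTGS1 -0.39. MS4A3 stood at -1.71, COL1A2 at -1.46, CDC25A at -0.45 and NDUFV1 at -0.42.

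The remaining differences rest on few reads in growth medium and are fitted values, not bounds. CYP4F2 stood at 7.90, and its call was lost without growth-medium siNC replicate 3 (6.01, adjusted p = 0.272) or 2 (6.53, adjusted p = 0.0532). CHI3L1 stood at 7.77, PCSK1 at 7.25, SBSN at 7.21 and APP at 6.80. CHI3L1 and SBSN lost the call without growth-medium siRHOB replicate 3 (5.46 and 4.91) or 2 (5.46 and 4.91), PCSK1 without its replicate 3 or 1 (3.17 in each case), and APP without growth-medium siNC replicate 3 or 2 (4.58 in each case). Leaving out a replicate 3 library of MK medium also ended the call of SBSN and APP (siNC adjusted p = 0.0928 and 0.0865, siRHOB 0.0555 and 0.0542) and of PCSK1 (siNC, adjusted p = 0.0554). GBP4 stood at -7.46, GBP5 at -4.66, KIRREL at -4.72 and CAMK2A at -4.08, and each kept its call without any library. Without 1 library GBP5 reached -6.87 (growth-medium siNC replicate 1) and -6.66 (its replicate 3), and KIRREL -3.89 (growth-medium siNC replicate 3) and -5.63 (siRHOB replicate 3). DMBT1 stood at -4.78 and NLRC5 at -4.76, and each turned sign without 1 growth-medium library, as given with the processing.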

How the results depend on the processing

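The number of genes that differed in replicate 3 was 4942. It was 4955 with RLE scaling, 4958 without the filter, 5418 in DESeq2, 3682 and 3656 in limma on log2(FPKM + 1) and log2(FPKM + 0.1), and 720 in the test against 1.5-fold, of which 645 were higher and 75 lower. With a replicate block, a factor of 3 replicate numbers, the count was 4501, and 5541 in MK medium, 4315 in growth medium, 3111 for the difference between media and 0 for the difference between siRNAs. No count moved by over 1.5 times with the block, and of the genes described only CHI3L1, PCSK1, SBSN and APP lost a call in it. The labels do not say that the numbers pair the samples. Leaving out 1 library at a time gave 2859 to 6851 genes in MK medium, 2722 to 4859 in growth medium and 1745 to 3954 for the difference between media. Leaving out a library numbered 3 leaves 1 such library in its medium, which is then assumed to vary like the others. With 1 library left out, the difference between media ranged from -5.87 to 0.43 for DMBT1, positive without growth-medium siRHOB replicate 3, and from -7.98 to 0.71 for NLRC5, positive without growth-medium siNC replicate 3. The cause was not tested. TAL1, which did not pass, ranged from -0.0103, without growth-medium siNC replicate 3, to 0.0873. Over the genes and alternatives run, 1489 of 1529 values kept their direction and side of the threshold, 37 lost the call and 3 reversed, and smaller folds with FPKM come with the pseudocount. Depth limits genes under 1 CPM, such as IL1B and ITGAX in growth medium.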

Other observations

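In replicate 3, genes of the amino acid and integrated stress response were higher for 14 of 35 and lower for 6 in MK medium, and lower for 15 and higher for 5 in growth medium. Actin and serum response factor targets were higher for 15 of 30 and lower for 3 in MK medium, and lower for 9 and higher for 3 in growth medium. Ribosome biogenesis and MYC-linked genes were lower for 18 of 39 and higher for 3 over both media, and aminoacyl-tRNA synthetase genes were lower for 13 of 20 and higher for 0. Of 24 NRF2 genes 8 were higher and 3 lower, of 21 p53 pathway genes 6 were higher and 1 lower, and of 7 metallothionein and zinc genes 1 was higher and 0 lower. Among all genes tested 18.7% were higher and 16.5% lower over both media, and lists this short with counts near those shares show no trait of their own. Iron uptake and storage genes were lower for 5 of 11 and higher for 0. K562 identity genes were lower for 5 of 15 and higher for 1, and glucose-sensing genes of the TXNIP type were lower for 3 of 7 and higher for 1.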
